A study of Mus musculus with 14 samples.

Results

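The liver sinusoidal endothelial markers are 10 genes named by symbol: Stab1, Stab2, Lyve1, Clec4g, Pecam1, Kdr, Cdh5, Tek, Egfl7 and Ptprb. They were found by matching the symbols to the named rows of the array table, which gave 9 of the 10 among 19505 named genes. No row carried Egfl7 as its only symbol, so it has no value here. Rows with several symbols were not used. Their rows in the table are TC1400001671.mm.2 (Stab1), TC1000002629.mm.2 (Stab2), TC0700004104.mm.2 (Lyve1), TC0800001617.mm.2 (Clec4g), TC1100003932.mm.2 (Pecam1), TC0500002623.mm.2 (Kdr), TC0800001176.mm.2 (Cdh5), TC0400000952.mm.2 (Tek) and TC1000001336.mm.2 (Ptprb). The question put to the data was whether these genes of non-targeted cells differed between livers with and without hepatocyte AMPK, and how much they varied from array to array.

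Affymetrix gene arrays were run on liver RNA of 14 samples from male mice on a C57BL/6 background, labelled as 4 months old. All carried homozygous floxed AMPK alpha 1 and alpha 2 alleles, received a high-fat diet (60% of calories) from 6 weeks of age, and were injected at 10 weeks into the jugular vein with an adeno-associated virus (AAV8) bearing the TBG promoter, which directs expression to hepatocytes. The control group (6 samples) received the empty vector and the knockout group (8 samples) the vector with Cre, the recombinase that excises floxed DNA. For 3 weeks after the injection both groups took 50 mg/kg/day of metformin, which lowers blood glucose, and the livers were collected at the end of a 16 h fast, so that no group was free of metformin or of the diet. The endothelium was therefore not the cell type given Cre, and the labels do not state that samples are separate mice. The p-values then describe only how these samples vary, part of which may be technical. The descriptions of knockout 7 and knockout 8 repeat the numbers of knockout 5 and knockout 6, so fewer than 8 distinct knockout samples are possible. With those pairs averaged the differences of the 9 markers given below ran from -0.11 (Ptprb) to 0.09 (Stab1), with 0 called in limma, and the calls over all genes went from 84 higher and 53 lower to 45 and 22.

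Sinusoidal endothelial cells line the capillaries between the plates of hepatocytes. Unlike most endothelium they are perforated by pores without a diaphragm and lack a continuous basement membrane, and they clear waste molecules from blood through scavenger receptors. Their identity is maintained by vascular endothelial growth factor (VEGF) signalling through Kdr and by transcription factors such as Gata4, and they in turn release signals such as Wnt2 and Bmp2 that act on hepatocytes.

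The arrays fell into 2 sets by their correlations over all rows, which the labels do not mention: control 1 to 3 with knockout 1 to 4 (set 1), and control 4 to 6 with knockout 5 to 8 (set 2). Pearson correlations were 0.988 to 0.994 within a set and 0.951 to 0.963 across sets, and array medians ranged from 5.73 to 5.87 on the log2 scale. Both targeted genes were lower in knockout arrays: Prkaa2 fell by 1.13 ± 0.08 (SE; limma adjusted p = 1.92e-06) and Prkaa1 fell by 0.67 ± 0.13 (SE; limma adjusted p = 0.0302). Hepatocyte markers were high, with Alb between 13.6 and 13.7 in every group mean. A first principal component was computed from the values centred within each set, without any gene of the lists used here. On it control 1 scored 22.3 and control 4 scored 22.1, outside the range of the remaining 12 arrays (-12.0 to 7.89). Unlisted genes with values close to the markers' mean, such as Vipr1 and Calcrl, stayed in, so the component is not independent of the markers. Results are given with and without control 1 and control 4, which were singled out with earlier results of these data known.

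The promoters of 4 of the markers are shown first. They are those of Clec4g and Kdr, which had the largest residual SDs, and of the paralogues Stab1 and Stab2. The levels of Stab1 and Stab2 shifted in opposite directions between the sets. RefSeq promoter sequences (GRCm38.p6) were matched for 6 of the 10 genes, Egfl7, Tek, Kdr, Clec4g, Stab2 and Stab1. Each run is the 250 bases before a RefSeq transcript start, written 5′ to 3′ on the gene's strand. The windows are chr8:3720652-3720901 for Clec4g, chr5:75978456-75978705 for Kdr, chr14:31168642-31168891 for Stab1 and chr10:87007943-87008192 for Stab2, all on the minus strand. Capitals mark AGGAAG or CGGAAG, which are among the forms bound by ETS family factors such as Erg and Fli1, on either strand. They also mark AGATAA or TGATAA, which are among the forms bound by GATA factors. Other forms of either site were not searched and are not marked. Where capitals read CTTCCT or CTTCCG the ETS form lies on the opposite strand.

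Clec4g: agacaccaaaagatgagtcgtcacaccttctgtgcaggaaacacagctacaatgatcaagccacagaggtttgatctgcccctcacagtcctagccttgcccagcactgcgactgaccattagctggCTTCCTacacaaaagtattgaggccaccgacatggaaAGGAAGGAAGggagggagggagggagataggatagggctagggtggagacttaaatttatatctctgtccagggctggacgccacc
Kdr: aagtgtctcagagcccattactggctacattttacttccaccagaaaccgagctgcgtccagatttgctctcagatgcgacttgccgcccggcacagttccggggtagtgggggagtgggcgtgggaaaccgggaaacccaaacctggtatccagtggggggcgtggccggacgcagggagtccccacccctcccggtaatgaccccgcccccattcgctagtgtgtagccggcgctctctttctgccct
Stab1: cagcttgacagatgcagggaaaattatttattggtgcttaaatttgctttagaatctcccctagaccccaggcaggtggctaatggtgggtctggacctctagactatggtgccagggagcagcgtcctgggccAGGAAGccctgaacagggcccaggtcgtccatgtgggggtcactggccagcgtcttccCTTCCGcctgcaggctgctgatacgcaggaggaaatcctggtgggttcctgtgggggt
Stab2: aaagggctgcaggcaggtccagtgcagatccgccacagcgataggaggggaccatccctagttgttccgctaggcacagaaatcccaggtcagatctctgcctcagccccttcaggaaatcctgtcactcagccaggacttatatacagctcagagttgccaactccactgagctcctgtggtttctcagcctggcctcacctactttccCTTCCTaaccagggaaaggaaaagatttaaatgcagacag

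Clec4g held 3 matches to the ETS forms, of which the pair at 86 to 81 and 82 to 77 bases before the start overlaps. Stab1 held 2 and Stab2 held 1, while these forms were not in the Kdr and Tek windows. Neither GATA form searched was in the windows of these 5 measured genes. Sites of other forms, for ETS or GATA factors, were not counted and may be present. Among 32851 RefSeq windows of 250 bases, 39.2% held an ETS form searched here and 16.6% a GATA form searched here. For ETS, 3 of 5 is a count too small to set apart from that share. These matches describe letters only.

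None of the 9 measured markers differed between knockout and control livers in the limma fit with the set as a term (0 of 9 at an adjusted p under 0.05, and 0 of 9 at an unadjusted p under 0.05). Over all 19505 genes that fit called 0.431% higher and 0.272% lower, and 10.4% (2021 genes) had an unadjusted p under 0.05, so a count of 0 among 9 genes is near that background. The median of the 9 differences, knockout minus control, was -0.02 on the log2 scale against 0.00 over all genes, with 3 positive and 6 negative (49.4% of all genes were negative). The differences ran from -0.09 (Ptprb) to 0.12 (Stab1). The bounds of their 95% intervals reached from -0.67 to 0.64, both for Clec4g, the marker with the widest interval. A limma fit without the set term also called none of the 9, with 0 at an unadjusted p under 0.05, in a fit that called 0.00% of all genes in each direction at the adjusted threshold and 3.36% (655 genes) at an unadjusted p under 0.05. Knockout and control arrays overlapped within at least 1 set for all 9 genes; over all genes the knockout arrays lay above every control of their set for 0.774% and below for 0.538%.

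**Figure D1:**
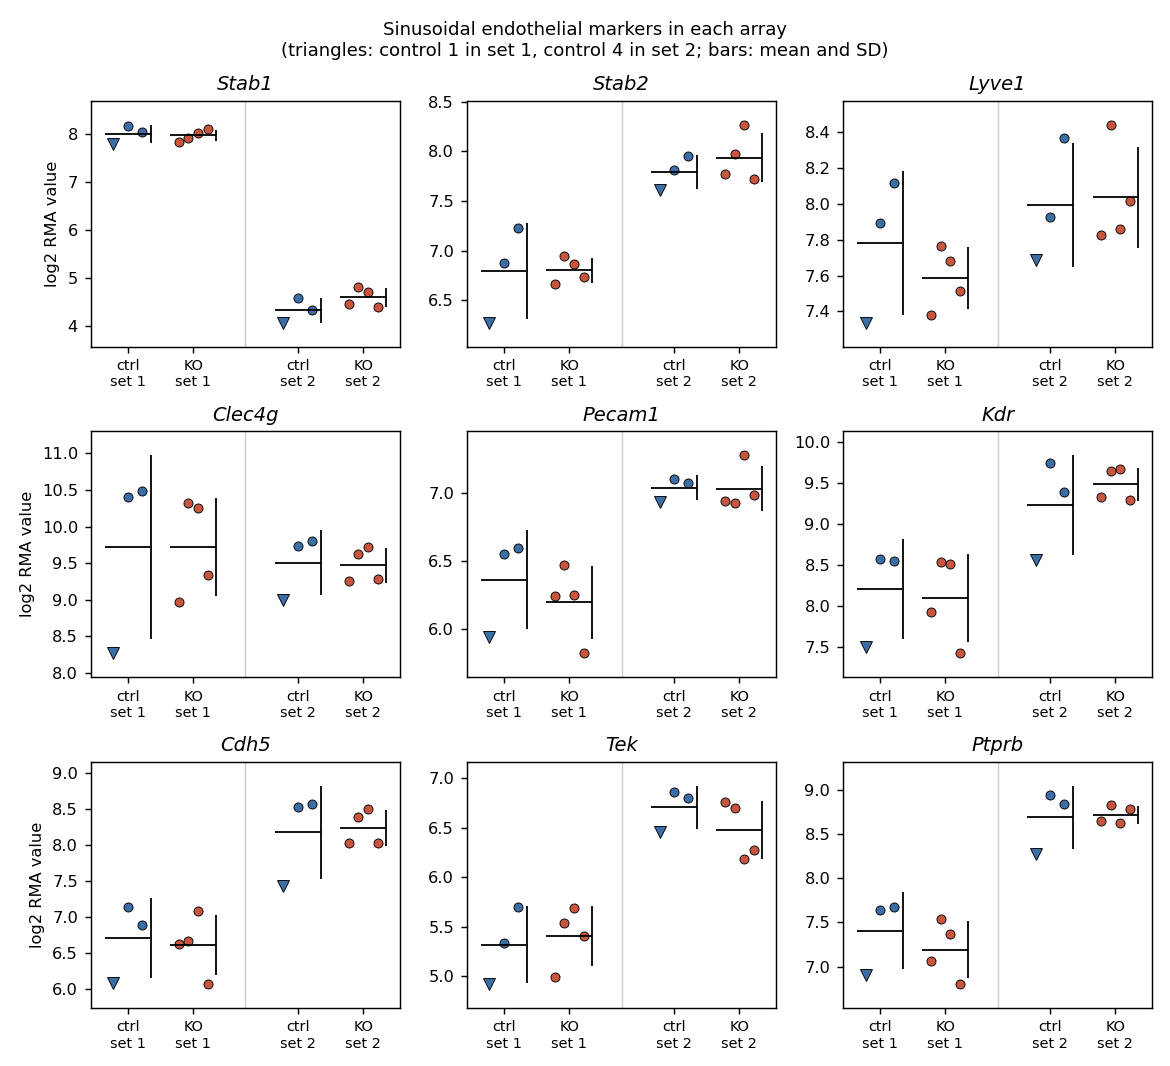
Log2 RMA values (vertical axes, a separate scale for each gene) of the 9 measured markers in the 14 arrays, by group and set, with control 1 and control 4 as triangles and the mean and SD of each group beside the points. Control 1 and control 4 are the lowest control of their set for all 9 genes, and Stab1 lies between 7.79 and 8.17 in set 1 and between 4.06 and 4.81 in set 2.

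Of the scavenger receptors, Stab1 (stabilin-1) and Stab2 (stabilin-2) are large receptors that take up modified lipoproteins, hyaluronan and other waste from blood. Stab2 was 6.27, 6.87 and 7.23 in control 1 to 3 and 6.66, 6.94, 6.87 and 6.73 in knockout 1 to 4. In set 2 it was 7.61, 7.81 and 7.95 in control 4 to 6 and 7.77, 7.97, 8.27 and 7.73 in knockout 5 to 8. The groups overlapped in both sets, with control 1 and control 4 the lowest array of their set, and the difference was 0.08 ± 0.13 (SE; 95% interval -0.20 to 0.35; limma adjusted p = 0.910).

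Stab1 was 7.79, 8.17 and 8.03 in control 1 to 3 and 7.84, 7.91, 8.01 and 8.11 in knockout 1 to 4. In control 4 to 6 it was 4.06, 4.57 and 4.33, and in knockout 5 to 8 4.46, 4.81, 4.70 and 4.40. Within a set the arrays lay close together and the groups overlapped, whereas the sets were far apart. The knockout difference was 0.12 ± 0.10 (SE; 95% interval -0.10 to 0.34; limma adjusted p = 0.776), and control 1 and control 4 were again the lowest array of their set.

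Lyve1, a hyaluronan receptor shared with lymphatic endothelium, was 7.34, 7.89 and 8.12 in control 1 to 3 and 7.38, 7.77, 7.68 and 7.52 in knockout 1 to 4. In set 2 it was 7.69, 7.93 and 8.37 in control 4 to 6 and 7.83, 8.44, 7.86 and 8.02 in knockout 5 to 8. The groups overlapped in both sets, and the difference was -0.08 ± 0.14 (SE; 95% interval -0.38 to 0.22; limma adjusted p = 0.920).

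Clec4g, which encodes the C-type lectin LSECtin, had the largest residual SD of the 9 markers, with its widest spread in set 1. It was 8.27 in control 1 against 10.40 and 10.49 in control 2 and control 3, and 8.97, 10.32, 10.25 and 9.34 in knockout 1 to 4. In set 2 it was 8.998, 9.73 and 9.80 in control 4 to 6 and 9.25, 9.63, 9.72 and 9.28 in knockout 5 to 8. Low arrays were thus present in both groups of set 1 (control 1, knockout 1 and knockout 4), and the mean difference was -0.02 ± 0.31 (SE; 95% interval -0.67 to 0.64; limma adjusted p = 0.995). Its residual SD of 0.68 was exceeded by 0.261% of all genes. Among the controls of set 2 its SD (0.44) was below that of Cdh5 (0.64) and Kdr (0.61).

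Of the signalling receptors, Kdr (VEGF receptor 2, the main receptor for Vegfa on endothelium) was 7.51, 8.58 and 8.56 in control 1 to 3 and 7.92, 8.53, 8.52 and 7.43 in knockout 1 to 4. In set 2 it was 8.56, 9.75 and 9.39 in control 4 to 6 and 9.33, 9.65, 9.67 and 9.29 in knockout 5 to 8. Control 1 and knockout 4 were the low arrays of set 1 and control 4 the low array of set 2. The difference was 0.07 ± 0.22 (SE; 95% interval -0.40 to 0.54; limma adjusted p = 0.958).

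Tek, which encodes the angiopoietin receptor Tie2, was 4.92, 5.33 and 5.70 in control 1 to 3 and 4.99, 5.54, 5.69 and 5.41 in knockout 1 to 4. In control 4 to 6 it was 6.46, 6.86 and 6.81, and in knockout 5 to 8 it was 6.76, 6.70, 6.18 and 6.27. In set 2 the lowest arrays were knockout 7 and knockout 8 rather than control 4, and the groups overlapped. The difference was -0.07 ± 0.15 (SE; 95% interval -0.38 to 0.24; limma adjusted p = 0.934). Ptprb encodes VE-PTP, an endothelial phosphatase that restrains Tie2. It was 6.91, 7.64 and 7.67 in control 1 to 3, 7.06, 7.53, 7.37 and 6.80 in knockout 1 to 4, 8.27, 8.94 and 8.84 in control 4 to 6, and 8.64, 8.82, 8.62 and 8.78 in knockout 5 to 8. Control 4 was the lowest array of set 2, knockout 4 the lowest of set 1, and the difference was -0.09 ± 0.15 (SE; 95% interval -0.40 to 0.22; limma adjusted p = 0.903).

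Of the junction proteins, Cdh5 (VE-cadherin, the adhesion protein of endothelial junctions) was 6.08, 7.14 and 6.89 in control 1 to 3 and 6.63, 6.67, 7.08 and 6.07 in knockout 1 to 4. In set 2 it was 7.43, 8.52 and 8.57 in control 4 to 6 and 8.02, 8.38, 8.50 and 8.03 in knockout 5 to 8. As for Kdr, control 1 and knockout 4 were low in set 1 and control 4 in set 2, and the difference was -0.02 ± 0.21 (SE; 95% interval -0.45 to 0.42; limma adjusted p = 0.994). Pecam1 (CD31, a junction protein also carried by platelets and leukocytes) was 5.94, 6.55 and 6.60 in control 1 to 3, 6.24, 6.47, 6.25 and 5.82 in knockout 1 to 4, 6.94, 7.11 and 7.08 in control 4 to 6, and 6.94, 6.93, 7.28 and 6.99 in knockout 5 to 8. Its arrays overlapped between groups in both sets, with a difference of -0.09 ± 0.12 (SE; 95% interval -0.34 to 0.16; limma adjusted p = 0.881).

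In control 1 and control 4 all the markers were low together. Control 1 lay below both other controls of set 1 for 9 of 9 genes, and control 4 below both other controls of set 2 for 9 of 9; over all genes these shares were 35.5% and 33.2%. Against the mean of the other 2 controls of its set, control 1 ranged from -2.17 (Clec4g) to -0.32 (Stab1), with a mean over the 9 genes of -0.88. Control 4 ranged from -1.12 (Cdh5) to -0.16 (Pecam1), with a mean of -0.57, while the median over all genes was 0.00 in both arrays. In control 1 the number of genes, of all 19505, that lay further below the other controls ran from 3 for Clec4g to 2266 for Stab1. In control 4 it ran from 36 for Cdh5 to 5316 for Pecam1, so several markers there were not far down among all genes. Both arrays were singled out with earlier results of these data known, so these values are a description with no test.

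Low values were not limited to those arrays. Relative to the mean of its set, the average over the 9 genes was -0.54 in control 1 and -0.42 in control 4, but also -0.29 in knockout 4 and -0.24 in knockout 1, against 0.38 in control 3, the highest array. Knockout 1 was below the set mean for 9 of 9 genes, knockout 4 for 7, and knockout 5 and knockout 8 for 8 each, and 0 of 9 were below it in control 3. In knockout 5 and knockout 8 the average over the 9 genes was only -0.08 and -0.11. The share of all genes below the set mean in each array was not counted, so these counts have no background beside them. The spread was wider among the 3 controls than among the 4 knockouts of the set for 9 of 9 genes in set 1 and 6 of 9 in set 2, where all genes gave 54.1% and 47.6%. Those controls include control 1 and control 4, so this spread is not separate from their low values. The 9 genes were low together in these arrays, so the counts do not stand for 9 separate observations. Because whole liver was measured, fewer endothelial cells and less RNA per endothelial cell cannot be told apart.

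**Figure D2:**
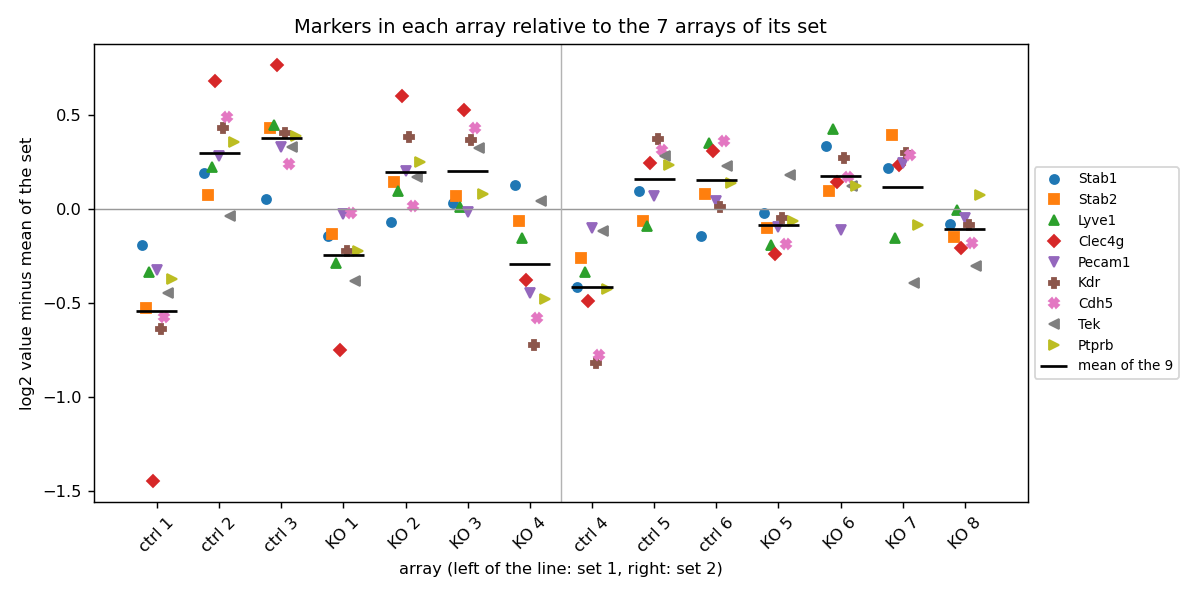
Each marker's log2 value minus its mean over the 7 arrays of its set (vertical axis) in the 14 arrays (horizontal axis), with a black line for the mean of the 9 genes. All 9 points lie below 0 in control 1, control 4 and knockout 1, and Clec4g in control 1 is the lowest at -1.45.

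The genes were not equally close to one another. Ptprb followed the mean of the other 8 markers most closely, with a root mean square difference of 0.12 over the 14 set-centred arrays, followed by Stab2 at 0.17. Tek at 0.26 and Clec4g at 0.40 followed it least. Clec4g did so with larger swings in the same arrays, and Tek with its low values in knockout 7 and knockout 8 of set 2.

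Leaving out control 1 and control 4 moved the median difference from -0.02 to -0.265, and all 9 differences were then negative, where 48.9% of all genes were. Since these were the lowest controls for every marker, leaving them out lifts the control mean by itself. None of the 9 passed the adjusted threshold in that limma fit, which called 0.0718% of all genes higher and 0.0615% lower, and 3 of the 9 had an unadjusted p under 0.05, as did 10.9% of all genes (2121 of 19505). Ptprb was at -0.32 ± 0.12 (SE; limma adjusted p = 0.345), Cdh5 at -0.36 ± 0.15 (SE; limma adjusted p = 0.410) and Clec4g at -0.51 ± 0.22 (SE; limma adjusted p = 0.413). The values of Kdr (-0.27), Stab2 (-0.10) and Stab1 (-0.0004) turned from positive to negative. All knockout arrays then lay below both remaining controls in each set for 2 of the 9 genes, Clec4g and Ptprb, and above them for 0; over all genes the shares were 1.46% below and 1.78% above. These values rest on 4 control arrays, 2 in each set.

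**Figure D3:**
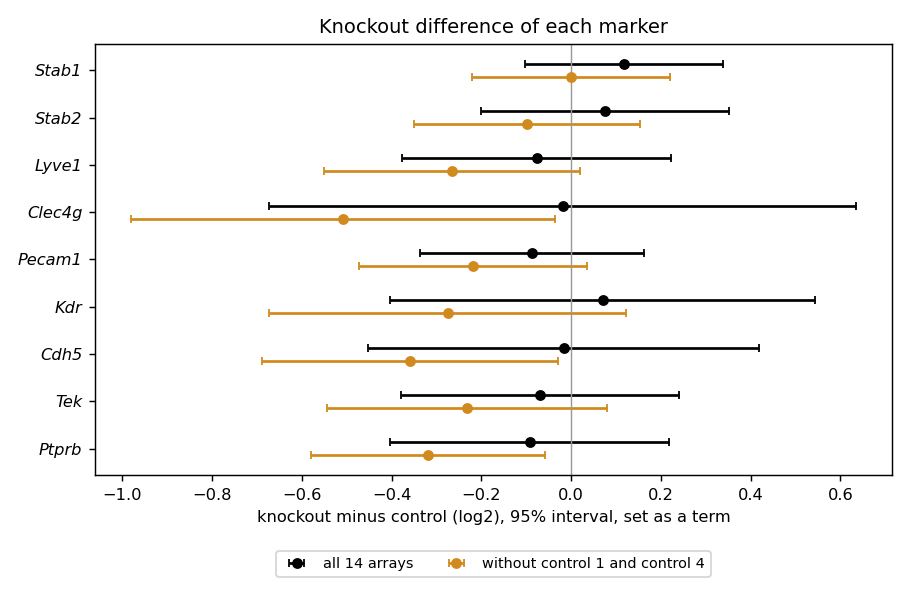
Knockout minus control difference on the log2 scale (horizontal axis) with its 95% interval for each of the 9 markers, from the limma fit that includes the set, over all 14 arrays (black) and without control 1 and control 4 (orange). The black points lie between -0.09 and 0.12 with intervals that all include 0, and the orange points all lie at or to the left of 0.

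Taken set by set, the differences did not share a sign. In set 1 alone they ran from -0.22 (Ptprb) to 0.09 (Tek), and in set 2 alone from -0.23 (Tek) to 0.27 (Stab1). None passed the adjusted threshold or an unadjusted p of 0.05 in limma in either set. Over all genes set 1 alone called 0.00513% higher and 0.00513% lower, and set 2 alone 0.00% higher and 0.0103% lower. At an unadjusted p under 0.05 in either direction these shares were 8.63% (1683 genes) in set 1 and 6.58% (1284 genes) in set 2. The interaction of knockout and set was called for 0 of 9 markers (0 at an unadjusted p under 0.05) and for 0.00% of all genes (943 genes, or 4.83%, at an unadjusted p under 0.05).

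Between the sets the markers shifted widely, and Stab1 had by far the largest gap. Set 2 minus set 1 was -3.50 for Stab1, and only 12 of all 19505 genes had a larger gap in either direction. Cdh5 (1.56), Ptprb (1.42), Kdr (1.23), Tek (1.21), Stab2 (1.08), Pecam1 (0.77) and Lyve1 (0.35) had positive gaps, against a median of 0.11 over all genes. Clec4g had a small gap in the direction of Stab1, at -0.23. In both groups the Stab1 gap was alike, with controls at 8.00 ± 0.20 (SD, n = 3) and 4.32 ± 0.26 (SD, n = 3) and knockouts at 7.97 ± 0.12 (SD, n = 4) and 4.59 ± 0.20 (SD, n = 4) in set 1 and set 2. In set 2 Stab1 lay below every array median. The background level of the arrays is not known here, and whether the row follows the gene in that set was not tested. What the sets stand for is not given in the sources used here.

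**Figure D4:**
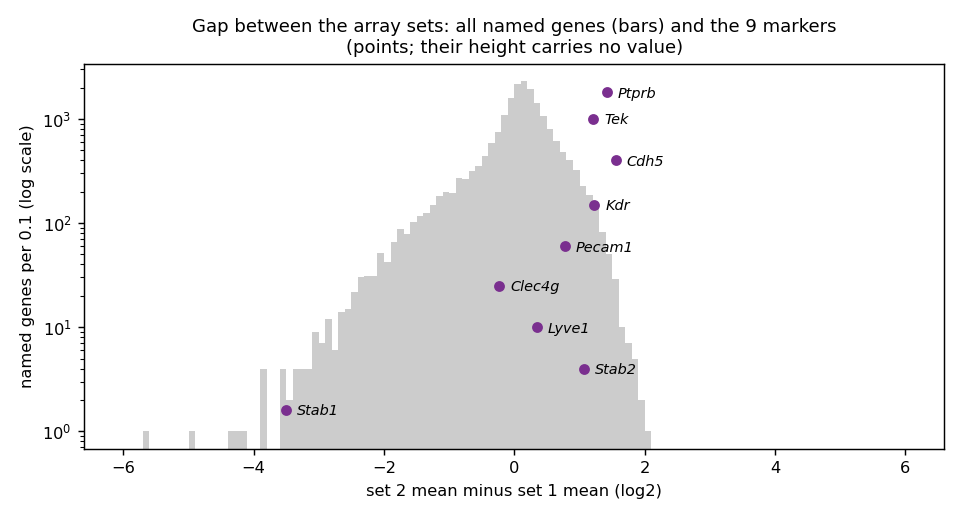
Gap between the set means (horizontal axis, log2) for all 19505 named genes as bars (vertical axis, number of genes on a log scale) and for the 9 markers as labelled points, whose height carries no value. Stab1 lies at -3.50 in the left tail, whereas the other 8 lie between -0.23 and 1.56.

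The other genes of sinusoidal endothelium were low in the same pair of controls. Of 12 listed genes, all measured, 0 passed the threshold in either direction (0 at an unadjusted p under 0.05), 8 had a positive and 4 a negative difference, and the median was 0.04. The smallest p-values belonged to the growth factor gene Bmp2 at 0.32 ± 0.17 (SE; limma adjusted p = 0.565) and the transcription factor gene Gata4 at -0.13 ± 0.10 (SE; limma adjusted p = 0.731), neither past the threshold. Control 1 was the lowest control of its set for 12 of 12 and control 4 for 11 of 12, Maf being the exception. Over all genes the shares were 35.5% and 33.2%, beside which the same counts in the lists below are to be read. The Fc receptor gene Fcgr2b was -2.16 in control 1 and -1.46 in control 4 against the other controls, and the mannose receptor gene Mrc1, which Kupffer cells also express, was -1.60 and -0.80. Without control 1 and control 4 the list's median was -0.29 and 0 genes passed.

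Genes of endothelium in general also had their lowest list mean of each set in control 1 and control 4. Of 20 measured genes 0 passed (0 at an unadjusted p under 0.05 in limma), 10 differences were positive and 10 negative, and the median was 0.00. The transcription factor gene Erg was 0.22 ± 0.18 (SE; limma adjusted p = 0.745) and the matrix protein gene Mmrn2 0.21 ± 0.17 (SE; limma adjusted p = 0.753). Control 1 was the lowest control for 16 of 20 and control 4 for 14 of 20. Vwf, the von Willebrand factor gene of larger vessels, was not low, at 0.01 in control 1 and 0.13 in control 4 against the other controls of their set. Its mean over the controls was 5.24, below every array median. Sox7 was not low in control 1 (0.20), nor were Esam (0.02) and Mmrn2 (0.26) in control 4.

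In the VEGF and angiopoietin list 13 of 14 genes were measured, 0 passed in either direction in limma and 1 had an unadjusted p under 0.05. That gene was Vegfb, a ligand of VEGF receptor 1, at -0.34 ± 0.12 (SE; adjusted p = 0.287), followed by the adaptor gene Shb at -0.15 ± 0.08 (SE; adjusted p = 0.589). The list's median difference was -0.07. Control 1 was the lowest control for 6 of 13 and the highest for 6 of 13, and control 4 the lowest for 8 of 13. The shares of all genes that were lowest there were 35.5% and 33.2%. The receptor genes Flt4 (-0.61 and -0.49) and Tie1 (-0.45 and -0.37) lay below the other controls in control 1 and control 4, whereas Vegfa, the ligand that hepatocytes make, was at -0.14 and -0.07.

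Of 11 zonated endothelial and angiocrine genes 0 passed (0 at an unadjusted p under 0.05 in limma), with a median of 0.01. Ltbp4, a binding protein for TGF beta, was -0.17 ± 0.13 (SE; limma adjusted p = 0.713) and the thrombomodulin gene Thbd -0.18 ± 0.14 (SE; limma adjusted p = 0.745). The central vein signals Wnt2 and Rspo3 were -1.26 and -0.71 in control 1 against the other controls, but -0.24 and -0.11 in control 4, and Wnt9b was 0.08 and -0.10. Control 1 was the lowest control for 8 of 11 and control 4 for 5 of 11, where all genes gave 35.5% and 33.2%. The Notch ligand gene Dll4 (-0.92 and -0.83), the receptor gene Kit (-0.64 and -0.73) and Thbd (-0.52 and -0.37) were low in both arrays, Efnb2 was -0.10 and -0.46, and Cdh13 lay above the other controls in both (0.16 and 0.36). Among 4 lymphatic endothelial genes 0 passed and 1 had an unadjusted p under 0.05 in limma, the chemokine gene Ccl21a at 0.29 ± 0.10 (SE; limma adjusted p = 0.224). Pdpn, the podoplanin gene, was -0.10 ± 0.11 (SE; limma adjusted p = 0.842). Control 1 was the lowest control for 2 of these 4 and control 4 for 0.

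Most Kupffer cell markers were also low in these arrays, and stellate cell markers were low in part. Kupffer cell and macrophage genes (12 of 13 measured) had their lowest control in control 1 for 12 of 12 and in control 4 for 10 of 12, with means of -0.94 and -0.47 against the other controls. The defining markers Clec4f, a Kupffer cell lectin, and Vsig4, a complement receptor, were -0.95 and -1.14 in control 1 and -0.64 and -0.69 in control 4. Cd5l and Marco were -0.68 and -0.30 in control 1 but lay above the other controls in control 4, at 0.29 and 0.25. Stellate cell genes (14 of 15 measured) had control 1 lowest for 10 of 14 and control 4 for 6 of 14, with means of -0.51 and -0.18. For control 4 that count is to be read beside the 33.2% of all genes that were lowest there. Of their defining markers, Lrat, which makes retinyl esters, was -1.24 and -0.35, and Reln was -0.09 and -0.06. The matrix and stellate transcription factor genes Col1a1 (0.12 and 0.13) and Hand2 (0.19 and 0.04) lay above the other controls in both arrays, and Col1a2 at 0.16 in control 1 and -0.08 in control 4. The lymphocyte and neutrophil genes were mixed, with means of -0.17 in control 1 and -0.05 in control 4 against the other controls. Among them S100a8, a calcium-binding protein of neutrophils, was 0.90 and 0.61 above the other controls, and S100a9 0.84 and 0.21. In contrast, Cd3d was at -1.37 and -0.27, and Cd8a at -0.69 and -0.28.

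Hepatocyte markers lay close to the other controls in these arrays, but most were near the top of the measured range, and whether values there follow the amount of RNA was not tested. Of 12 measured genes 7 had a mean within 0.5 of the highest value in the table (13.8), among them Alb and Apoa1. Of 12 measured genes control 1 was lowest for 3 and highest for 5, control 4 lowest for 2 and highest for 7, and the means were 0.04 and 0.02. Alb and Apoa1, the defining markers, were -0.08 and 0.05 in control 1 and 0.02 and 0.02 in control 4. Of the 5 genes below that level, Hnf4a, a hepatocyte transcription factor at a mean of 10.2, was 0.18 in control 1 and -0.06 in control 4, Cps1 0.27 and 0.12, Tat -0.10 and -0.07, F2 0.06 and 0.09 and Fgb 0.04 and 0.06. The summed level of each list, given as its mean per array, ranged in set 1 from 6.78 to 7.70 in controls and from 7.03 to 7.52 in knockouts for the 9 endothelial markers, and from 7.88 to 8.86 and from 8.09 to 8.95 for Kupffer cells. For stellate cells it ranged from 7.04 to 7.64 and from 7.14 to 7.65, and for hepatocytes from 12.67 to 12.71 in both groups. In set 2 the ranges were 7.34 to 7.91 and 7.64 to 7.93 for the endothelial markers, 8.07 to 8.55 and 8.21 to 8.84 for Kupffer cells, 7.63 to 8.07 and 7.53 to 7.88 for stellate cells, and 13.01 to 13.06 and 13.04 to 13.07 for hepatocytes. The groups overlapped for each of these 4 lists in both sets, and the part of the other cells in the endothelial values was not tested.

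**Figure D5:**
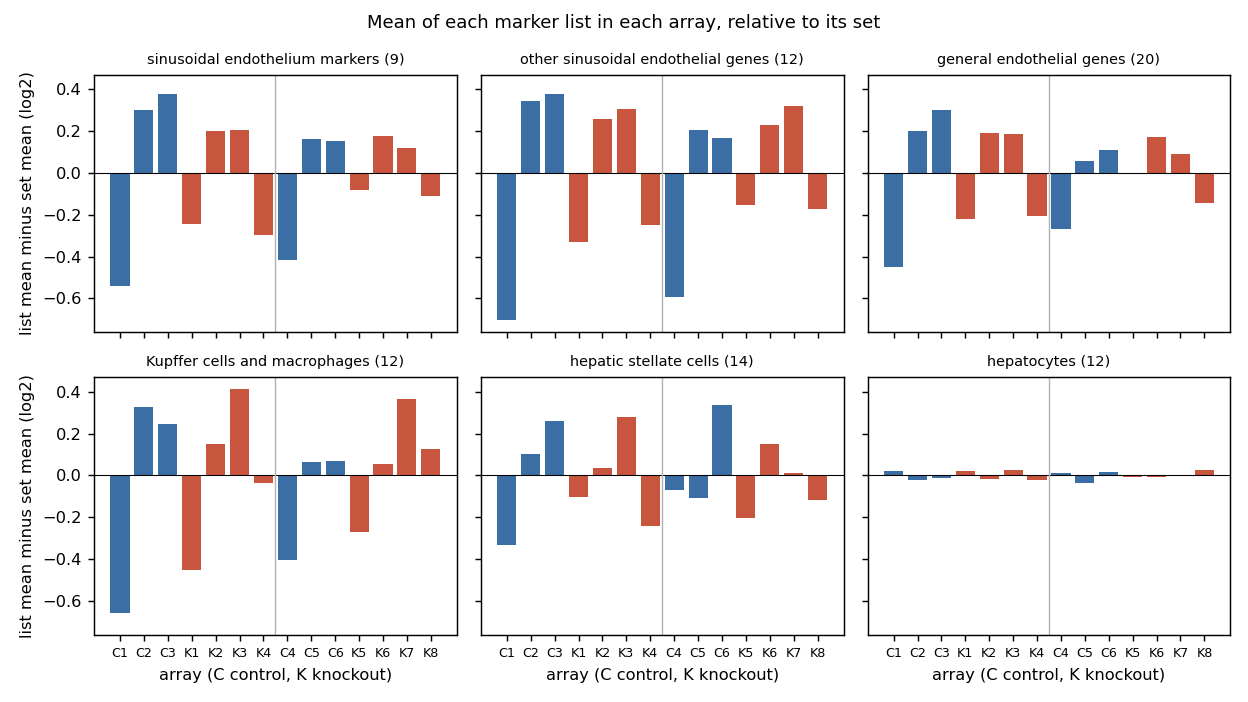
Mean of each marker list minus its mean over the 7 arrays of the set (vertical axis, log2) in the 14 arrays (horizontal axis; C control, K knockout; set 1 left of the line), with the number of measured genes in brackets. The 3 endothelial lists and the Kupffer cell list are lowest in C1 and C4 of their sets, and the hepatocyte bars stay near 0.

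No other list held a gene past the threshold: in limma 0 of 128 genes of the lists beside the 9 markers were called, and 9 (7.03%) had an unadjusted p under 0.05, against 10.4% of all genes. The nearest were the immediate early genes Junb at -0.42 ± 0.09 (SE; adjusted p = 0.0556) and Ier2 at -0.48 ± 0.11 (SE; adjusted p = 0.0678), genes switched on quickly by many stimuli. Of the 7 genes of that list 3 had an unadjusted p under 0.05 in limma, these and Egr1 at -0.68 ± 0.21 (SE; adjusted p = 0.201). For 5 of the 7 immediate early genes control 1 was the lowest control of its set, and control 4 for 4, where all genes gave 35.5% and 33.2%. Kupffer cell genes had 11 of 12 differences positive with a median of 0.12 and 0 at an unadjusted p under 0.05, which became 3 of 12 positive with a median of -0.14 without control 1 and control 4. Its smallest p-values were those of Folr2 at 0.33 ± 0.23 (SE; adjusted p = 0.691) and C1qc at 0.22 ± 0.20 (SE; adjusted p = 0.781). Stellate cell genes had a median of -0.05, led by Col1a1 at -0.16 ± 0.11 (SE; adjusted p = 0.689) and Reln at -0.12 ± 0.09 (SE; adjusted p = 0.706). Mesothelial markers, from the capsule of the liver, were negative for 5 of 5 with a median of -0.35, of which Lrrn4 was -0.45 ± 0.20 (SE; adjusted p = 0.452) and Upk3b -0.53 ± 0.28 (SE; adjusted p = 0.556).

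The lists of the remaining cells gave 0 calls each in limma. Bile duct genes (6 of 7 measured, 0 at an unadjusted p under 0.05) had a median of -0.04, led by Cftr at 0.09 ± 0.09 (SE; adjusted p = 0.787) and the keratin gene Krt19 at -0.29 ± 0.38 (SE; adjusted p = 0.873). Lymphocyte and neutrophil genes (10 of 12 measured, 1 at an unadjusted p under 0.05) had a median of 0.08, led by the B cell genes Cd79a at 0.33 ± 0.12 (SE; adjusted p = 0.323) and Ms4a1 at 0.24 ± 0.14 (SE; adjusted p = 0.612). The 2 measured red blood cell genes were Alas2 at -0.17 ± 0.09 (SE; adjusted p = 0.565) and Slc4a1 at -0.12 ± 0.09 (SE; adjusted p = 0.739). Among hepatocyte genes (2 of 12 at an unadjusted p under 0.05; median -0.02) Tat was 0.23 ± 0.08 (SE; adjusted p = 0.272) and Fgb -0.12 ± 0.06 (SE; adjusted p = 0.476). Control 1 was the lowest control of its set for 3 of 6 bile duct, 5 of 10 lymphocyte and neutrophil, 0 of 2 red blood cell and 2 of 5 mesothelial genes, and control 4 for 3, 4, 1 and 2. All genes gave 35.5% for control 1 and 33.2% for control 4, and lists this small cannot be set apart from those shares.

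Over the 14 set-centred arrays, the genes outside the markers with values nearest to the markers' mean were Vipr1, Eng, Calcrl, Igfbp7, Slc43a3, Bgn, Adgrf5, Dcn, Abcc9 and Cyp4b1. Their root mean square differences ran from 0.09 (Vipr1) to 0.12 (Cyp4b1), against a median of 0.33 over 18418 genes compared. Eng, an endothelial co-receptor for TGF beta family ligands, and Adgrf5 were in the list of general endothelial genes, and Dcn in the stellate cell list. Since they were chosen for lying near the markers' mean, which was low in control 1 and control 4, their position there is given as a description: from -0.86 (Adgrf5) to -0.25 (Abcc9) in control 1 and from -0.61 (Slc43a3) to -0.21 (Dcn) in control 4.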

How the data were processed

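Liver RNA from 14 samples was labelled with the WT PLUS kit and measured on Affymetrix arrays, per the labels' protocols. RMA and Partek are named, without versions, in the submitters' processing notes. The deposited table was taken to be log2 from its range (2.13 to 13.8) and was not normalized again. Of 22206 rows, 19572 had 1 gene symbol in GEO's platform annotation. The other 2634 had none or several symbols and were left out. For 55 genes with several rows, the brightest row on average was kept. This left 19505 genes, with no filter on level. Arrays give no read depth, so their number limits the precision.

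The members and lists were chosen with earlier results of these data known. Array sets came from average-linkage clustering of correlations over all rows. The groups were compared in limma 3.58.1 under R 4.3.3 (lmFit, eBayes) with the set in the model (11 residual degrees of freedom) and Benjamini-Hochberg adjustment over all genes (threshold 0.05). The fits were also run on simulated data in which each gene varied independently. The markers here moved together across arrays, so that run does not speak to this feature of the data. Beyond the 10 markers, the text names of each list up to 3 genes past the threshold or else the 2 with the smallest p, the first 2 genes of a cell type list, and the 10 genes nearest to the markers' mean; others were chosen after their values were seen. Knockout 7 and 8 carry in their descriptions the numbers of knockout 5 and 6; whether they are repeat arrays is not known. Their correlations with those arrays (0.989 and 0.991) lay within or next to the range of the other knockout pairs of set 2 (0.989 to 0.991), and all were counted as samples, with the pairs averaged as an alternative. Alternatives covered the set term, single arrays, replicate block, normalization, filter, weights and rows per gene. Promoter windows are RefSeq, GRCm38.p6.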

Additional observations from a re-analysis of the deposited data

How the results depend on the processing

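None of the 9 markers was called under any of the 29 alternatives that refitted them, in either direction. The median of their differences (-0.0186) ran from -0.265 to 0.0892 over the 29 and was positive in 8; leaving out 1 array gave -0.159 to 0.0892, positive in 7 of 14. Single markers changed sign too. In set 1 alone Stab1 was -0.0315, Clec4g 0.0001, Kdr -0.113 and Tek 0.0893, and in set 2 alone Lyve1 was 0.0441, Cdh5 0.0577 and Ptprb 0.0317. Without control 1 and control 4 Stab1 was -0.0004, Stab2 -0.0986 and Kdr -0.275. For 2 of the 9 markers, Clec4g and Ptprb, all knockout arrays then lay below the remaining controls of their set, as for 1.46% of all genes. The arrays left out were the lowest controls for all 9 markers, so their removal by itself favours that. Leaving out 1 array gave 0.0420 to 0.175 for Stab1, -0.0293 to 0.181 for Stab2, -0.159 to 0.0122 for Lyve1, -0.338 to 0.147 for Clec4g, -0.100 to 0.188 for Kdr, -0.188 to 0.0892 for Cdh5, -0.169 to -0.0230 for Pecam1, -0.177 to -0.0064 for Tek and -0.197 to -0.0187 for Ptprb. Without knockout 7 and knockout 8 Tek was 0.0610.

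Same-numbered arrays were taken to share only a number: the correlations of their deviations ran from 0.02 to 0.09. With the replicate block and the set term Tek was 0.0109 and 1 gene was called higher and 1 lower over all genes. Knockout 7 and knockout 8 have no control of their number and add nothing to these differences. With the replicate block and no set term Stab1 was 0.695 ± 0.489 (SE; limma adjusted p = 0.748), the highest value of any marker in any of the 29, where number 4 pairs a control of set 2 with a knockout of set 1; Stab2 was -0.134, Clec4g 0.0123 and Kdr -0.160, with 0 genes higher and 1 lower.

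The count over all genes, 84 higher and 53 lower, moved with many choices. It was 0 and 0 without the set term, 29 and 10 with the set as a random block, 1 and 1 in set 1 alone, 0 and 2 in set 2 alone, and 14 and 12 without control 1 and control 4. It was 45 and 22 with knockout 5 and 7 and knockout 6 and 8 averaged, and 8 and 4 without knockout 7 and knockout 8. It was 201 and 124 with trend and robust, and 169 and 101 with genes above the median level only. Thresholds of 0.01 and 0.1 gave 15 and 3, and 146 and 96. Leaving out 1 array gave 30 to 84 higher and 14 to 48 lower; the first moved by over 1.5 times without control 1, 2, 4 or 6 or knockout 1, 2, 3, 4, 7 or 8, and the second without control 1, 2, 4 or 5 or knockout 1, 2, 3, 4, 5, 7 or 8. Quantile normalization within sets gave 78 and 64 and median centring 82 and 45. In the other lists 1 gene (Junb) was called lower with quantile normalization and without knockout 8, 2 (Junb and Ier2) with array weights and with genes above the median level, 3 (with Fgb) with trend and robust, and 2 at a threshold of 0.1. The cause was not tested.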
